A study of Mus musculus with 43 samples.

Results

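The 9 genes described here encode receptors that raise or restrain T cell activation: Ctla4, Cd28, Icos, Tnfrsf9, Tnfrsf18, Tnfrsf4, Havcr2, Lag3 and Pdcd1. They were measured by 14 of the 45101 probe sets of the array, every probe set that the platform annotation assigns to one of these symbols, and they are 9 of the 18194 genes that have a probe set assigned to 1 gene name alone. The cells were of the CTLL-2 line, mouse cytotoxic T cells of C57BL/6 origin that depend on interleukin 2 (IL-2), the T cell growth factor. All groups come from this 1 line, which had been maintained in 50 U/mL human recombinant IL-2 and was then deprived of it for 14 h. IL-2 (human recombinant, 100 U/mL) was then given back. RNA was taken after 0.5, 1 and 2 h (n = 3 arrays each), after 4 h (n = 4), and after 6, 8, 10, 12, 16 and 24 h (n = 3 each). Further cells stayed without IL-2 for another 4 h (n = 4) or 8 h (n = 3), and starved cells at 0 h (n = 5) are the common baseline. The series describes the replicates of the IL-2 times as biological, and does not say this of the prolonged starvation, whose spread may therefore be technical.

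Naive T cells respond fully to antigen when a costimulatory signal accompanies that of the T cell receptor. CD28, ICOS and the TNF receptor family members 4-1BB (Tnfrsf9), GITR (Tnfrsf18) and OX40 (Tnfrsf4) provide such signals, whereas CTLA-4, PD-1 (Pdcd1), LAG-3 and TIM-3 (Havcr2) restrain the cell. CTLA-4 and CD28 share the ligands CD80 and CD86, and IL-2 itself signals in T cells largely through the transcription factor STAT5.

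Promoter sequences were printed for the 4 genes on which the results below turn: Tnfrsf9 and Tnfrsf18, the receptor genes with the largest differences between IL-2 and no IL-2 at 8 h, Havcr2, which rose with them against starved cells, and Ctla4, which fell against starved cells. Each sequence is the 250 bases before a RefSeq transcription start in the mouse build GRCm38.p6, read 5′ to 3′ on the strand of the gene. Capitals mark matches to the STAT motif TTCNNNGAA and to the AP-1 motif TGANTCA.
Tnfrsf9, chr4:150927749-150927998, plus strand: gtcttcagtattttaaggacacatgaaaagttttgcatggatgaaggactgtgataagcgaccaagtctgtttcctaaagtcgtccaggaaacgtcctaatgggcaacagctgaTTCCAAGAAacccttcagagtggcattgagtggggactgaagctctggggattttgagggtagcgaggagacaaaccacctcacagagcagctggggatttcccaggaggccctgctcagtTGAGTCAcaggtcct
Tnfrsf18, chr4:156026072-156026321, plus strand: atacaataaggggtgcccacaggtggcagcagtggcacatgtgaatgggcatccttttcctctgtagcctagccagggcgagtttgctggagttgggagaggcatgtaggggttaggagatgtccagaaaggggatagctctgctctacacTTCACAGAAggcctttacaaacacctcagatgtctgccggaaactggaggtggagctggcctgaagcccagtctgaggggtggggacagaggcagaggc
Havcr2, chr11:46454681-46454930, plus strand: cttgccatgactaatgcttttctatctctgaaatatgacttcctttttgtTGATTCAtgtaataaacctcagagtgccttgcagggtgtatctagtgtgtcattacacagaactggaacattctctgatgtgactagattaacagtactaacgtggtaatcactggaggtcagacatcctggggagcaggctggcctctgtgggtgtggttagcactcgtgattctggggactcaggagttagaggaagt
Ctla4, chr1:60908775-60909024, plus strand: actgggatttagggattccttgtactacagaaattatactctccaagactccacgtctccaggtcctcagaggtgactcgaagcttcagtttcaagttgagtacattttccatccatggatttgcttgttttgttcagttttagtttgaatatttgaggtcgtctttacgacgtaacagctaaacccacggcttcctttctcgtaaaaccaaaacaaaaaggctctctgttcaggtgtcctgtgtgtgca
The STAT match TTCCAAGAA of Tnfrsf9 began 136 bases before the start, and the AP-1 match TGAGTCA of the same window began 15 bases before it. The STAT match of Tnfrsf18, TTCACAGAA, began 99 bases before its start, and the AP-1 match TGATTCA of Havcr2 began 200 bases before its start. The Ctla4 window held neither motif, and the window of another annotated Tnfrsf9 start (chr4:150919905-150920154) held neither. Windows were on hand for 6 of the 9 genes, 7 windows in all, including Tnfrsf4 and Pdcd1, which held neither motif. Of 32851 mouse promoter windows of this length, 7.02% held the STAT motif and 6.75% the AP-1 motif on either strand. A further 4 motifs were searched on both strands: FoxO (GTAAACA, in 3.17% of all windows and in none of the 7), NFAT (GGAAAA, 20.4%; in Ctla4, Tnfrsf18 and the other Tnfrsf9 start), NF-kB (GGG and CC with any 5 bases between, 45.8%; in the Tnfrsf9 window above) and the E-box (CACGTG, 6.02%; in Tnfrsf4). The NF-kB matches overlapped each other, and no match of one motif overlapped a match of another in these windows. These are matches of letters only.

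Each value is an array signal, a linear intensity that the authors had scaled to the same trimmed mean on every array, from which a log2 difference of signal + 16 was fitted. Signals of different probe sets were not set against each other. A gene was called at an adjusted p under 0.05 (limma over 32184 probe sets, Benjamini-Hochberg), on its probe set with the highest mean. The median signal ran from 46.1 to 118.6 between arrays, and the 7 arrays of scan day 2 held the values of 96.3 and above. All 7 arrays of prolonged starvation were scanned in a later year than the other 36, so that scan year and group cannot be told apart in any difference between those groups and the others. On those 7 arrays the actin 3′/5′ ratio, which tracks RNA integrity, was 1.18 to 1.53, and on the others 1.06 to 1.36. The Gapdh 3′/5′ ratio was 1.407 on IL-2 16 h replicate 1 and 0.777 to 0.968 on the other arrays. Replicate 2 of no IL-2 4 h stood apart from its group. Its mean correlation over all tested probe sets was 0.94 with the IL-2 4 h arrays and 0.935 with its own group. The other 3 arrays of its group had 0.919 to 0.927 with IL-2 4 h and 0.953 to 0.956 with their own. Such a gap was also found between IL-2 times, as for IL-2 10 h replicate 3 (0.951 with IL-2 8 h, 0.935 with its own group). Whether the label of no IL-2 4 h replicate 2 is wrong was not tested. Differences of receptor genes that use this array are also given without it, for the probe set on which the gene was called. The marker results, the orders of group means and the correlations over group means keep it. The 3 arrays at IL-2 24 h had the lowest mean correlations with their own group, from 0.887 to 0.913. The T cell label held for Cd3e, Cd3d, Cd3g, Cd247, Cd8a, Cd8b1, Thy1, Zap70 and Ptprc, each above the array median on all 43 arrays, while Cd4 and Cd2 were above it on 0 arrays.

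Ctla4 fell the furthest of the 9 genes after IL-2 was added, and Cd28 was called lower at 10 and 12 h. Tnfrsf18, Havcr2 and Tnfrsf9 rose to their highest group means at 8 h. No receptor gene was called at 0.5, 1 or 2 h by limma, where 0.186%, 0.661% and 3.49% of all tested genes were called. At the looser threshold of an unadjusted limma p under 0.05 there were 0, 2 and 1 of the 9. The share of all tested genes at that looser threshold is not given. Of the 9, 3 were called at 4 h (18.8% of all tested genes), 4 after 6 h (21%), 4 after 8 h (23.6%), 5 after 10 h (25.1%), 5 after 12 h (24.2%), 2 after 16 h (19.8%), and 1 after 24 h (10.9%). Over the time course as a whole, the F test called 5 of 9, against 33% of all tested genes: Ctla4 (F = 9.83, adjusted p = 1.78e-06), Cd28 (F = 5.2, adjusted p = 0.000721), Tnfrsf9 (F = 4.09, adjusted p = 0.00438), Tnfrsf18 (F = 4.0, adjusted p = 0.0051) and Havcr2 (F = 3.91, adjusted p = 0.00593). All 10 IL-2 times and both no IL-2 times were set against the same 5 starved arrays. In whole cultures, fewer cells that express a gene and less RNA per cell cannot be told apart, and in the time course IL-2 cannot be told apart from further time in culture. The median difference of all tested genes from starved cells was -0.22 after 4 h, -0.14 after 8 h, -0.25 after 10 h and -0.2 after 12 h, and the differences below are to be read against these values.

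**Figure D1:**
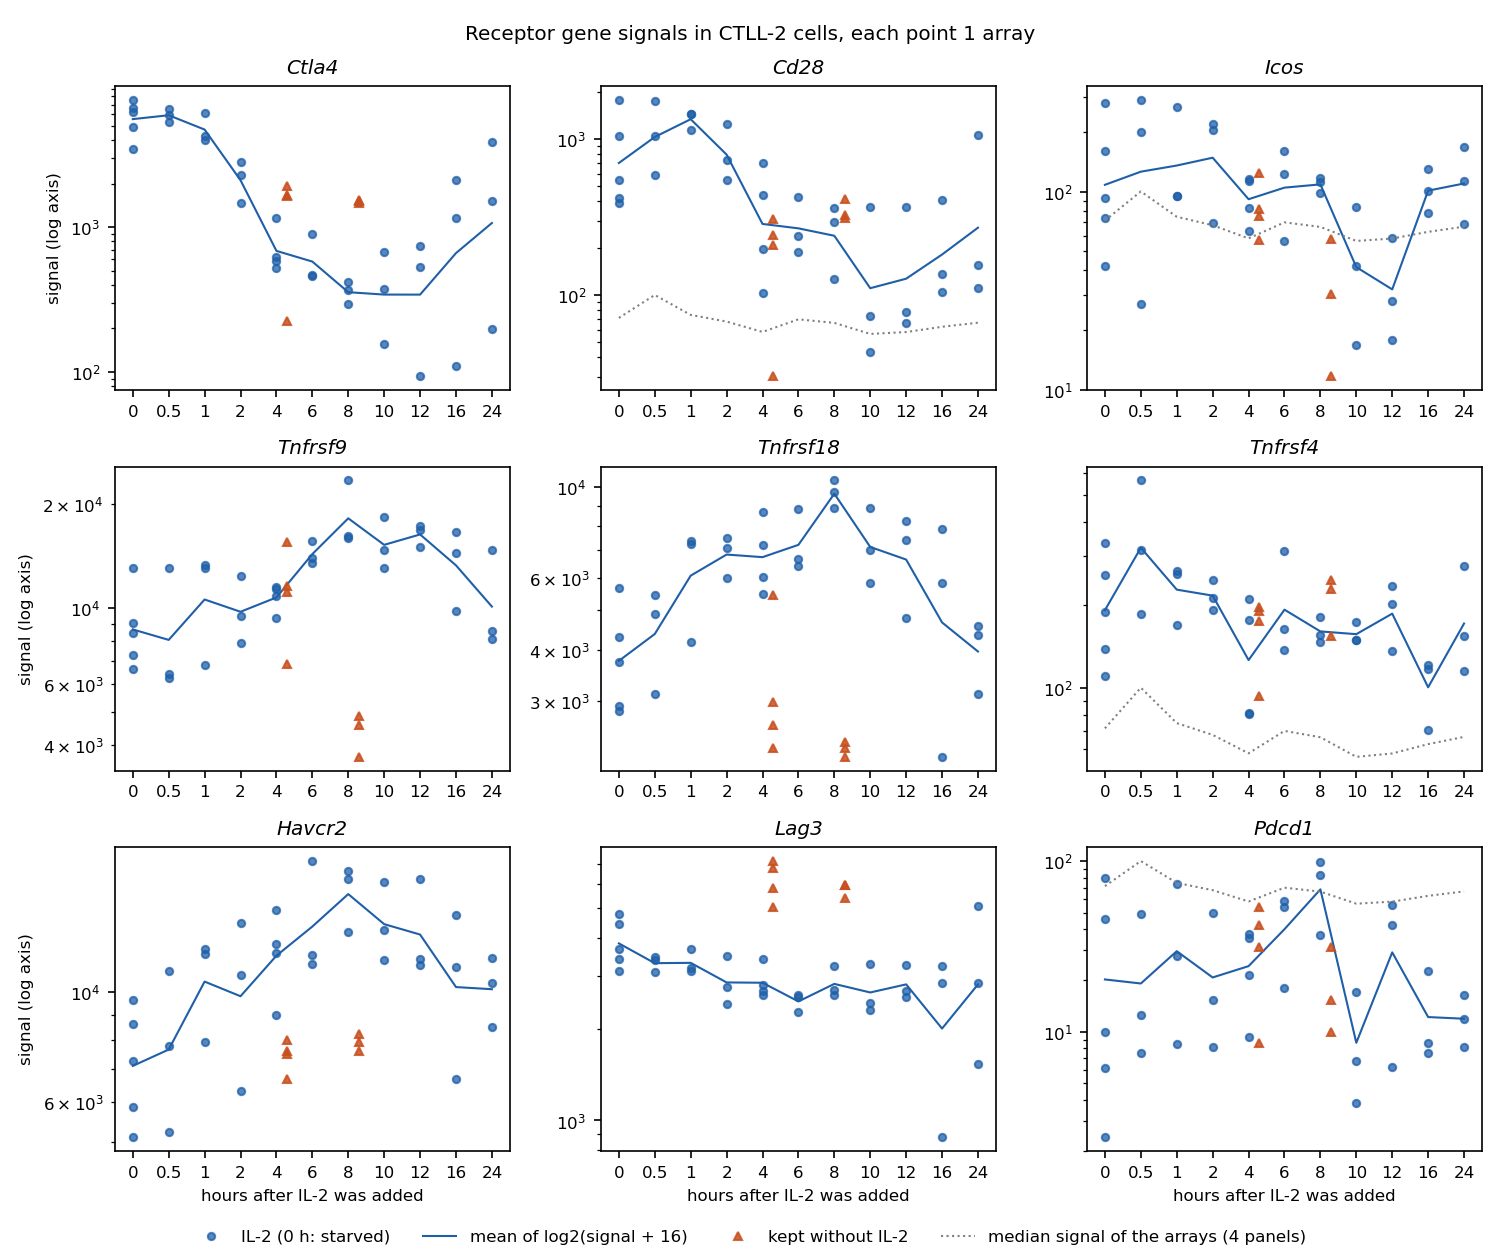
Signals of the 9 receptor genes (log axis) by hours after IL-2 was added, 1 point per array. Blue points are starved cells (0 h) and IL-2, the line joins the group means of log2(signal + 16), orange triangles are cells kept without IL-2 for 4 and 8 h, and the dotted line in 4 panels is the median signal of the arrays. Ctla4 lies between 293.7 and 416.2 at IL-2 8 h and between 3455.4 and 7576.9 at 0 h.

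Ctla4 encodes the inhibitory receptor that competes with CD28 for CD80 and CD86. Its signals in starved cells were 4934.2, 6233.8, 6680.2, 7576.9 and 3455.4. They were 6564.3, 5935.7 and 5348.6 at 0.5 h, 6163.6, 4024.2 and 4241.0 at 1 h, and 2820.5, 2276.5 and 1459.6 at 2 h. The first times overlapped the starved arrays, and all 3 arrays at 2 h lay below them, although the 2 h difference was not called (-1.40 ± 0.69 SE, adjusted p = 0.395). At 4 h the signals were 518.6, 585.9, 1162.9 and 622.9, and at 8 h they were 366.9, 293.7 and 416.2. Every array from 4 to 16 h lay below every starved array. The fall against starved cells was called at each time from 4 h to 24 h. It was -2.99 ± 0.64 on the log2 scale at 4 h (7.97-fold lower, adjusted p = 0.000886), -3.23 ± 0.69 at 6 h and -3.91 ± 0.69 at 8 h (15.1-fold lower, adjusted p = 7.45e-05). In this fit it was largest at 10 h (-3.96 ± 0.69) and 12 h (-3.97 ± 0.69). On scan day 3 alone it was -2.8 at 10 h and -2.66 at 12 h (1 IL-2 array each), against -3.57 at 8 h. The other arrays of 10 and 12 h were scanned on day 6, which held no starved array.

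The Ctla4 arrays spread widely from 10 h on. They read 155.0, 373.1 and 674.7 after 10 h and 93.4, 533.6 and 746.8 after 12 h. They read 109.2, 2109.8 and 1154.1 after 16 h and 197.3, 3856.0 and 1525.8 after 24 h. Replicate 1 was the lowest array at each of these times, and the highest array at 24 h lay inside the starved range. The differences at 16 h (-3.04 ± 0.69, adjusted p = 0.00182) and at 24 h (-2.37 ± 0.69, adjusted p = 0.0252) each rested on replicate 1 of that time: without it they were -1.83 (adjusted p = 0.0999) and -1.19 (adjusted p = 0.303). Replicate 1 at 16 h is the array with the Gapdh ratio of 1.407, whose part in the result was not tested. Without the 7 arrays of scan day 2, the 24 h difference was -1.15 (adjusted p = 0.419). Ctla4 at 24 h was not called against 10 h (1.60 ± 0.78, adjusted p = 0.381), but without 24 h replicate 1 it was (2.77 ± 0.76, adjusted p = 0.0204). That fit kept the low replicate 1 of 10 h (155.0). Without 24 h replicate 2 the difference was 0.68 ± 0.82 (adjusted p = 0.77), and without replicate 3 it was 1.34 ± 0.88 (adjusted p = 0.567). The difference from starved cells between 4 and 12 h was called under all 13 other ways of processing and with each array left out in turn.

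Ctla4 was also lower in cells that received no IL-2. Its signals were 1655.2, 226.4, 1925.3 and 1650.8 after 4 further hours without IL-2 and 1519.7, 1550.2 and 1475.1 after 8, all below the starved arrays. The difference from starved cells was called at 4 h (-2.39 ± 0.64, adjusted p = 0.0163) and not at 8 h (-1.87 ± 0.69, adjusted p = 0.112). Without replicate 2, the array with 226.4, the 4 h difference was -1.67 (adjusted p = 0.132). At 8 h the IL-2 arrays, from 293.7 to 416.2, all lay below the no IL-2 arrays, from 1475.1 to 1550.2, and the difference missed the threshold (-2.04 ± 0.78, 4.12-fold lower, adjusted p = 0.0579). At 4 h it was -0.61 ± 0.67 (adjusted p = 0.628), or -1.32 ± 0.67 (adjusted p = 0.183) without replicate 2, when all 4 IL-2 arrays lay below the 3 remaining no IL-2 arrays. The authors' deposited table of genes changed over the time course lists the Ctla4 probe set in cluster 7 with a false discovery rate of 1.82e-05.

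Cd28, the gene for the main costimulatory receptor, lies next to Ctla4 on chromosome 1 with no protein-coding gene between them in the RefSeq table. Its signals in starved cells were 420.6, 1054.2, 547.3, 392.5 and 1792.5. They were 1143.6, 1457.3 and 1463.6 at 1 h, inside the starved range. At 10 h they were 43.3, 74.0 and 366.4, and at 12 h 66.4, 77.7 and 367.2. Cd28 fell at 10 h (-2.51 ± 0.66, 5.68-fold lower, adjusted p = 0.00543) and at 12 h (-2.33 ± 0.66, 5.02-fold lower, adjusted p = 0.0101), and all arrays of both times lay below all starved arrays. The low arrays lie near the array medians, so the fold depends on the pseudocount. With scan day as a fixed block these differences were -1.72 (adjusted p = 0.057) and -1.54 (adjusted p = 0.0914). Each is also lost without replicate 1 of its time (-1.96 at 10 h, -1.93 at 12 h), and that at 12 h without replicate 2 (-2.02). At 4, 6 and 8 h the same probe set gave -1.25 ± 0.61, -1.34 ± 0.66 and -1.49 ± 0.66. These were not called (adjusted p = 0.177, 0.183 and 0.119), although all 8 h arrays lay below all starved arrays. On scan day 3 alone the differences were -1.29, -1.59 and -1.56 at these times, and -1.4 at both 10 and 12 h. The timing of Cd28 against Ctla4 was not tested. The other Cd28 probe set was called at 8 h (-2.20 ± 0.74), 10 h (-2.06 ± 0.74), 12 h (-2.20 ± 0.74) and 16 h (-2.35 ± 0.74), with arrays that overlapped the starved ones at each.

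Without IL-2, Cd28 read 209.9, 30.2, 307.2 and 242.2 at 4 h and 312.9, 326.8 and 416.1 at 8 h. The 4 h arrays all lay below the starved arrays and the difference was called (-2.07 ± 0.61, adjusted p = 0.0297), but not without replicate 2, which held 30.2 (-1.44, adjusted p = 0.189), nor on the mean of the Cd28 probe sets (-1.65, adjusted p = 0.0999). IL-2 and no IL-2 did not separate at 4 h (0.82 ± 0.64, adjusted p = 0.457; 0.18 ± 0.65, adjusted p = 0.899, without replicate 2) or at 8 h (-0.51 ± 0.74, adjusted p = 0.711), and their arrays overlapped at both times.

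Icos, the inducible relative of Cd28, follows Ctla4 on chromosome 1, again with 0 protein-coding genes between them. Its 3 probe sets were above the array median on 31, 10 and 32 of the 43 arrays. None of the 17 comparisons called it. On the first probe set, signals were 58.7, 17.8 and 28.1 at IL-2 12 h, against 161.3, 279.8, 92.5, 73.7 and 42.2 in starved cells, and the difference missed the threshold (-1.37 ± 0.51, adjusted p = 0.0542). At 8 h the IL-2 arrays read 98.0, 112.3 and 117.1 and the no IL-2 arrays 30.5, 57.5 and 11.7. These arrays did not overlap, and the difference of 1.45 ± 0.57 was not called (adjusted p = 0.0682). The other Icos probe sets did not show this separation, and their arrays overlapped at 8 h. The probe set above the median on 10 arrays gave 0.15 ± 0.72 (adjusted p = 0.923). That above the median on 32 arrays gave 0.07 ± 0.55 (adjusted p = 0.952). For IL-2 12 h against starved cells they gave 0.01 ± 0.65 (adjusted p = 0.997) and -1.25 ± 0.5 (adjusted p = 0.0738), respectively. Levels this close to the array median carry little precision.

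Tnfrsf9 encodes 4-1BB, a costimulatory receptor that appears on activated T cells. On its brightest probe set, starved cells read 9057.3, 6652.8, 7310.9, 13012.3 and 8467.3. The IL-2 arrays read 9316.2, 10843.4, 11518.0 and 11328.6 at 4 h, 13459.6, 13988.4 and 15580.6 at 6 h, and 15892.3, 23411.7 and 16144.5 at 8 h. All IL-2 arrays from 6 to 12 h lay above all starved arrays. Tnfrsf9 rose by 0.72 ± 0.25 on the log2 scale at 6 h (adjusted p = 0.043), 1.07 ± 0.25 at 8 h (2.1-fold, adjusted p = 0.00206), 0.81 ± 0.25 at 10 h and 0.91 ± 0.25 at 12 h. The 6 h call was lost in 7 of the 8 fits that left out 1 array, and the 8 h and 12 h calls held with each left out. At 10 h it was lost without starved replicate 2 (0.72) or IL-2 10 h replicate 2 (0.68).

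In cells without IL-2, Tnfrsf9 read 6879.9, 15518.6, 11585.4 and 11122.7 at 4 h and 4576.8, 3695.5 and 4846.3 at 8 h. The 3 arrays at 8 h were the lowest group of the series and lay below all starved arrays (-0.99 ± 0.25, adjusted p = 0.0143). That call was lost without replicate 1 (-1.03) or replicate 2 (-0.88) of the 8 h group. Against no IL-2, the IL-2 arrays at 8 h stood 4.17-fold higher (2.06 ± 0.28, adjusted p = 2.15e-06), and no arrays overlapped. At 4 h the same comparison gave -0.02 ± 0.25 (adjusted p = 0.982), with overlapping arrays, and 0.16 ± 0.26 (adjusted p = 0.759) without no IL-2 replicate 2. The difference between the IL-2 effects at 8 h and 4 h was tested itself: it was 2.08 ± 0.38 (adjusted p = 0.0263), Tnfrsf9 being the 1 receptor gene called there, against 0.0757% of all tested genes. Without no IL-2 4 h replicate 2, which held the highest of the 4 values, it was 1.90 ± 0.38 (adjusted p = 0.0801). The call was lost in 6 of the 14 fits that left out 1 array, in which the difference was 1.89 to 2.16.

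A dimmer Tnfrsf9 probe set had larger errors. Its IL-2 arrays at 8 h read 11965.1, 15520.0 and 12185.5, against 3040.5, 3986.3 and 4053.0 without IL-2 at 8 h and 3896.8, 5597.7, 5938.8, 6795.8 and 7257.4 in starved cells. It was called at 8 h against no IL-2 (1.84 ± 0.46, adjusted p = 0.00301) and against starved cells (1.18 ± 0.41, adjusted p = 0.0356), and at no other time. The difference of effects was 1.77 ± 0.60 on it (adjusted p = 0.284). The authors' deposited table lists this probe set in cluster 5 with a false discovery rate of 0.0107. The third probe set was above the array median on 2 arrays and was not tested.

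**Figure D2:**
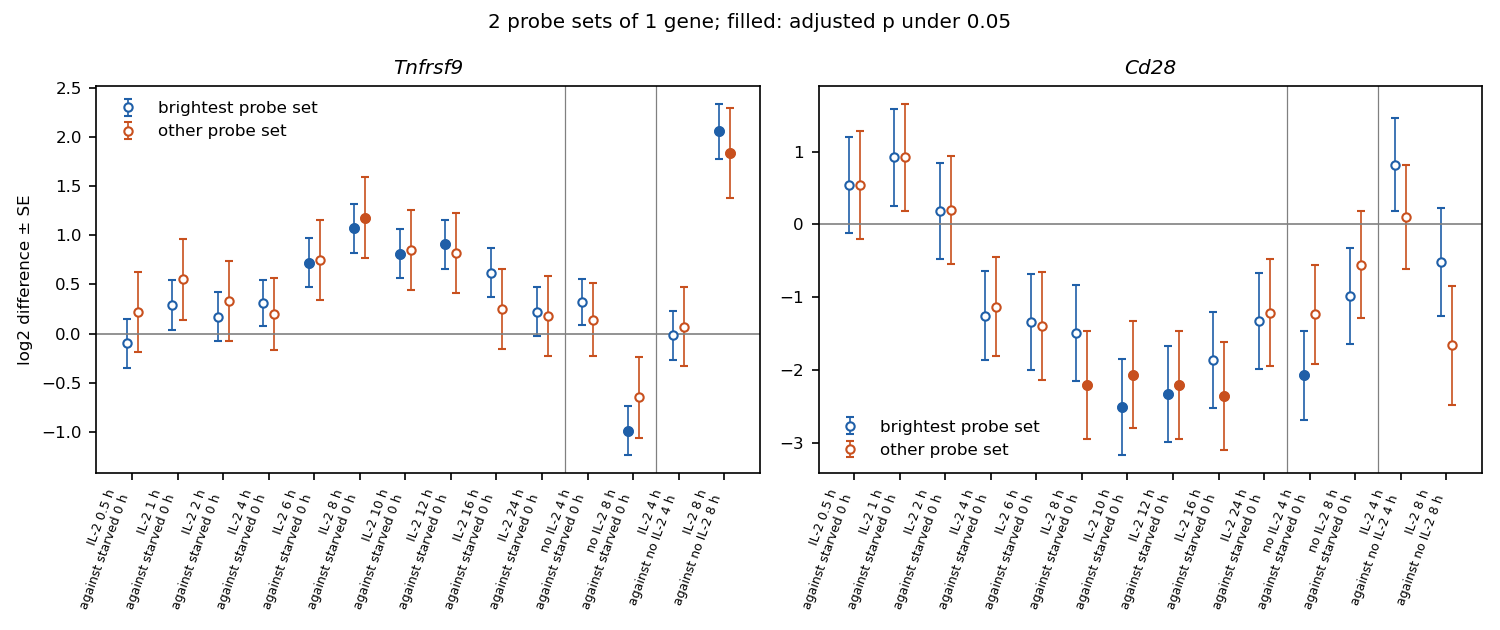
Log2 differences with standard errors of both tested probe sets of Tnfrsf9 and of both probe sets of Cd28 in each comparison. Filled points were called, and the vertical lines separate IL-2 against starved cells, no IL-2 against starved cells, and IL-2 against no IL-2. The Tnfrsf9 probe sets read 2.06 and 1.84 for IL-2 8 h against no IL-2 8 h.

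Tnfrsf18 encodes GITR, a costimulatory receptor also found on regulatory T cells. Starved cells read 2834.5, 2917.1, 3743.2, 5651.2 and 4306.0. The IL-2 arrays read 7090.7, 6002.3 and 7500.3 at 2 h, 5487.6, 6010.6, 7205.0 and 8655.6 at 4 h, and 10360.1, 9701.2 and 8853.2 at 8 h. All arrays at 2, 6, 8 and 10 h lay above the starved arrays. Tnfrsf18 rose at 4 h (0.84 ± 0.27, adjusted p = 0.026), 6 h (0.94 ± 0.29), 8 h (1.35 ± 0.29, 2.55-fold, adjusted p = 0.000688), 10 h (0.92 ± 0.29) and 12 h (0.82 ± 0.29, adjusted p = 0.0403). The 8 h call held with each array left out in turn and under all 13 other ways of processing. The other 4 calls were each lost without starved replicate 1 and without 1 or more arrays of the time itself (0.66 to 0.84 in such fits), and in 1, 2, 1 and 4 of the 13 at 4, 6, 10 and 12 h. At 16 h the arrays read 2197.4, 7909.9 and 5841.3 and the difference was 0.31 ± 0.29 (adjusted p = 0.543), or 0.85 ± 0.28 (adjusted p = 0.0508) without replicate 1, the array with the Gapdh ratio of 1.407.

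Tnfrsf18 was the receptor gene called higher with IL-2 than without it at both times. At 4 h the 4 IL-2 arrays, from 5487.6 up, all lay above the no IL-2 arrays, which read 2304.6, 5444.6, 2988.9 and 2628.5. The difference was 1.09 ± 0.28 (2.13-fold, adjusted p = 0.00623). Without no IL-2 replicate 2, the highest of them, it was 1.35 ± 0.28 (adjusted p = 0.000576). At 8 h the IL-2 arrays, from 8853.2 up, stood against no IL-2 arrays at 2301.0, 2195.2 and 2388.4, and the difference was 2.06 ± 0.32 (4.17-fold, adjusted p = 1.28e-05). The test of the difference between the 8 h and 4 h effects gave 0.97 ± 0.43 (adjusted p = 0.455), and 0.71 ± 0.41 (adjusted p = 0.788) without that array. The authors' deposited table lists Tnfrsf18 in cluster 9 with a false discovery rate of 0.0067.

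Tnfrsf4, the gene for OX40, lies next to Tnfrsf18 on chromosome 4 with no protein-coding gene between them, and was called in none of the 17 comparisons. Its signals were 70.7 at the lowest, 176.9 at the median and 563.1 at the highest of the 43 arrays, each above the median of its own array. At 8 h the IL-2 arrays read 181.1, 155.2 and 146.2, against 227.4, 154.0 and 245.1 without IL-2 (-0.33 ± 0.39, adjusted p = 0.64). In the F test its unadjusted p was 0.0409 (adjusted p = 0.12).

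Havcr2 encodes TIM-3, an inhibitory receptor of effector and exhausted T cells. Starved cells read 8643.0, 7268.6, 5099.0, 5868.3 and 9647.9. IL-2 arrays read 11977.6, 12517.6, 9008.3 and 14626.0 at 4 h, 11915.8, 11404.6 and 18391.2 at 6 h, and 16909.6, 13248.7 and 17533.0 at 8 h. All arrays from 6 to 12 h lay above the starved arrays. Havcr2 rose by 0.74 ± 0.23 at 4 h (adjusted p = 0.0224), 0.93 ± 0.25 at 6 h, 1.15 ± 0.25 at 8 h (2.22-fold, adjusted p = 0.000779), 0.95 ± 0.25 at 10 h and 0.88 ± 0.25 at 12 h. The 8 h and 10 h calls held with each array left out in turn, the 6 h and 12 h calls were lost without replicate 3 of their time (0.71 and 0.69), and the 4 h call was lost in 4 of 9 such fits (0.62 at the lowest). At 16 h the difference was 0.53 and not called (adjusted p = 0.158). Without 16 h replicate 1, the array with the Gapdh ratio of 1.407, it was 0.83 ± 0.27 and called (adjusted p = 0.0448).

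Without IL-2, Havcr2 stayed inside the starved range, at 6676.9, 8032.0, 7612.5 and 7524.0 at 4 h and 8258.1, 7601.1 and 7928.4 at 8 h. All IL-2 arrays lay above all no IL-2 arrays at both times. The difference was called at 8 h (0.99 ± 0.28, 1.99-fold, adjusted p = 0.00838) and missed the threshold at 4 h (0.67 ± 0.24, adjusted p = 0.0542), also without no IL-2 replicate 2 (0.71 ± 0.26, adjusted p = 0.0554).

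Lag3 encodes an inhibitory receptor that binds MHC class II. With IL-2 the arrays read 3392.8, 2593.5, 2668.1 and 2786.6 at 4 h and 2588.9, 3227.1 and 2682.2 at 8 h. Without IL-2 they were highest, at 5856.4, 5035.6, 7160.5 and 6783.3 at 4 h and 5968.0, 5416.7 and 5979.2 at 8 h. Starved cells lay between, at 4796.9, 3417.3, 3678.6, 4425.7 and 3103.5, and overlapped the IL-2 arrays. All 7 arrays without IL-2 lay above all starved arrays, with differences that were not called (0.68 ± 0.25, adjusted p = 0.0806 at 4 h, and 0.59 ± 0.27, adjusted p = 0.217 at 8 h). Without no IL-2 4 h replicate 2 the 4 h difference was 0.78 ± 0.27 (adjusted p = 0.0942).

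Lag3 was lower with IL-2 than without it at both times, by -1.11 ± 0.26 at 4 h (2.16-fold lower, adjusted p = 0.00307) and -1.03 ± 0.30 at 8 h (2.04-fold lower, adjusted p = 0.0117), with no overlap of arrays. Without no IL-2 4 h replicate 2 the 4 h difference was -1.20 ± 0.28 (adjusted p = 0.00189). The test of the difference between the 8 h and 4 h effects gave 0.08 ± 0.40 (adjusted p = 0.974), and 0.17 ± 0.41 (adjusted p = 0.975) without that array. Against starved cells Lag3 was called at 16 h alone (-0.93 ± 0.27, adjusted p = 0.0145), where the arrays read 879.1, 3236.0 and 2835.8. Without replicate 1, the array with 879.1, that difference was -0.34 (adjusted p = 0.46). It is again the array with the Gapdh ratio of 1.407.

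Pdcd1, the gene for PD-1, was above the array median on 4 of 43 arrays, with signals from 2.4 to 98.8. At 8 h the IL-2 arrays read 82.6, 37.2 and 98.8, against 15.4, 31.5 and 10.0 without IL-2, and the difference was not called (1.32 ± 0.57, adjusted p = 0.105). These arrays did not overlap. Signals mostly below the array median carry little precision, and no order of the Pdcd1 groups is given.

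**Figure D3:**
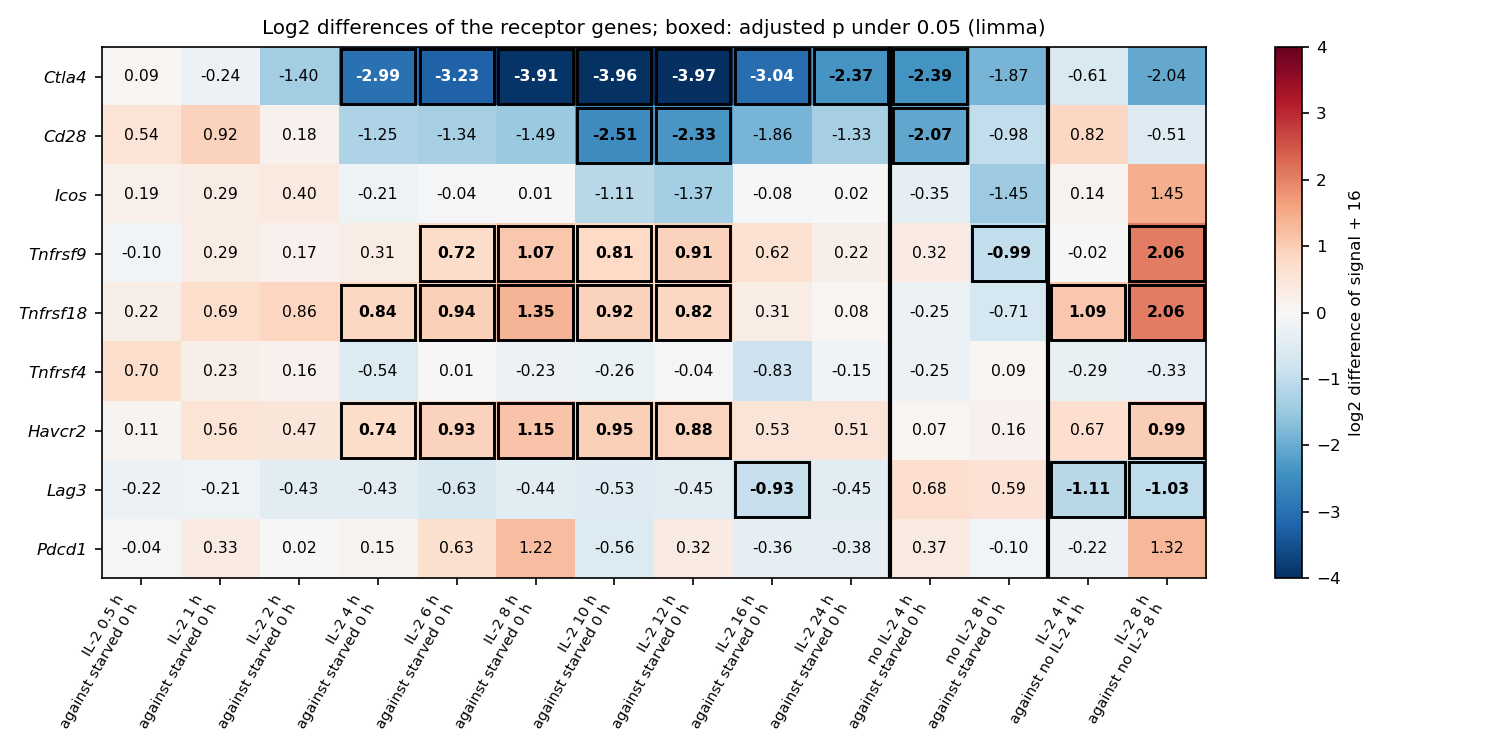
Log2 differences of the 9 receptor genes (rows) in 14 comparisons (columns): each IL-2 time against starved cells, no IL-2 against starved cells, and IL-2 against no IL-2. Red is higher and blue lower in the group named first, and boxed values were called at an adjusted p under 0.05. Ctla4 is boxed from 4 to 24 h, reaching -3.97 at 12 h, and Tnfrsf18 and Havcr2 from 4 to 12 h.

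At 8 h, IL-2 against no IL-2 called 4 of the 9 receptor genes, against 23.2% of all tested genes. Tnfrsf9, Tnfrsf18 and Havcr2 were higher with IL-2 and Lag3 lower. The 4 h comparison called 2 of 9, against 16.8%: Tnfrsf18 was higher and Lag3 lower, and both remained called without no IL-2 4 h replicate 2. Median centring ended the calls of Tnfrsf18 at 4 h (1.05, adjusted p = 0.0545) and of Lag3 at 8 h (-0.97, adjusted p = 0.0779), and a random scan-day block those of Lag3 (-1.0, adjusted p = 0.0528) and Havcr2 (0.85, adjusted p = 0.0667) at 8 h. Against starved cells, no IL-2 called 2 of 9 at 4 h (7.51% of all tested genes; Ctla4 and Cd28, both lower and both lost without replicate 2) and 1 of 9 at 8 h (5.46%; Tnfrsf9, lower). Between no IL-2 8 h and no IL-2 4 h limma called 0 of 9 (0.00688% of all tested genes), with 2 at an unadjusted p under 0.05, and 0 of 9 also without no IL-2 4 h replicate 2. Between IL-2 24 h and IL-2 10 h it also called 0 of 9 (0.612%), with 3 at an unadjusted p under 0.05.

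**Figure D4:**
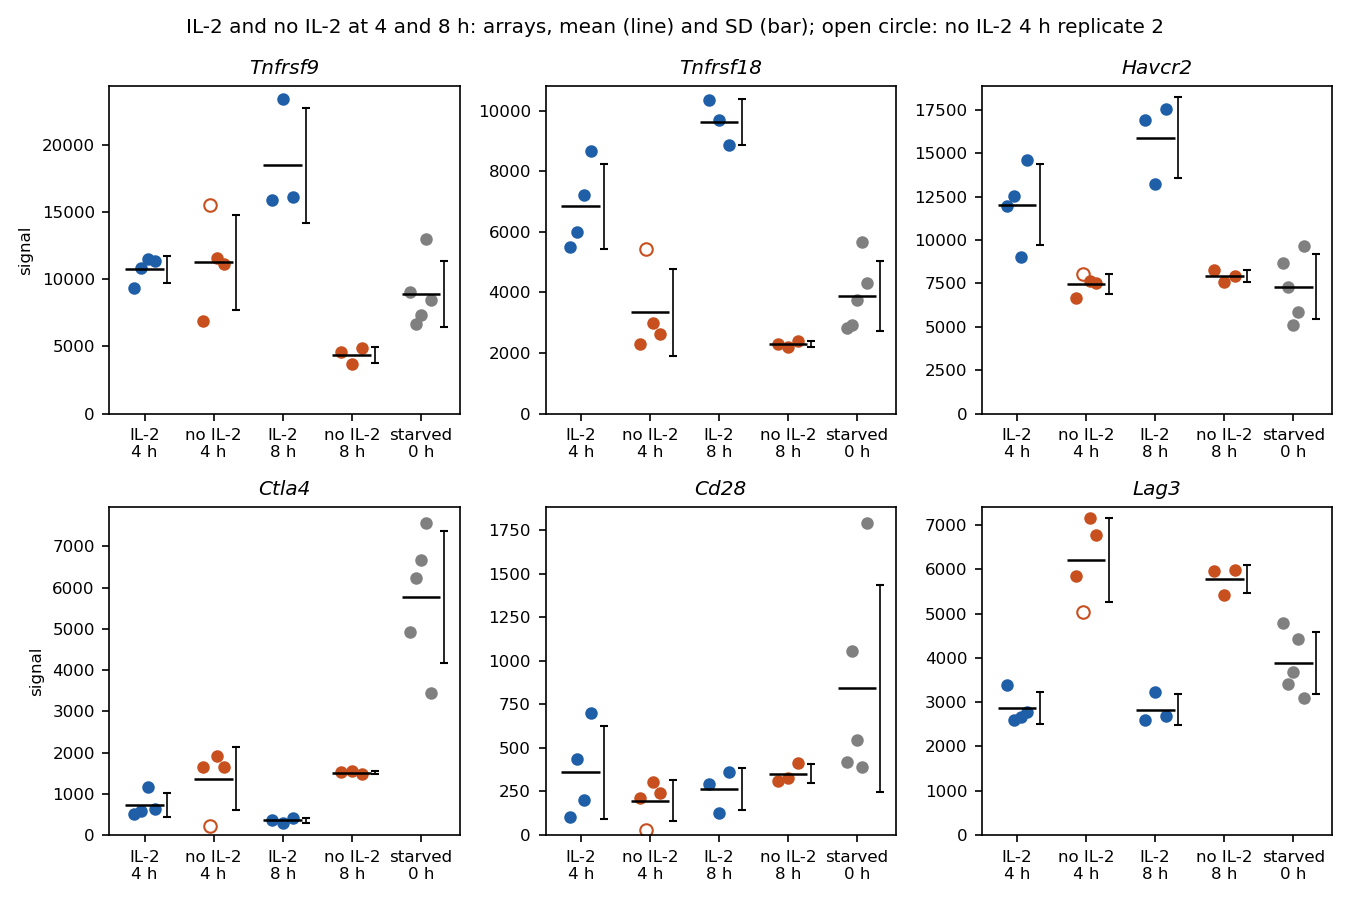
Signals of 6 receptor genes with IL-2 and without IL-2 at 4 and 8 h and in starved cells at 0 h, 1 point per array, with group means (line) and SDs (bar). The open circle is no IL-2 4 h replicate 2, which holds 226.4 for Ctla4 and 5444.6 for Tnfrsf18. Tnfrsf9, Tnfrsf18 and Havcr2 do not overlap between IL-2 and no IL-2 at 8 h.

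The summed signals of T cell and of macrophage markers also differed between IL-2 and no IL-2 arrays. The summed signal of 11 T cell markers was 88051 to 107708 with IL-2 and 120468 to 166539 without it at 4 h, and 108278 to 124227 with IL-2 and 142897 to 155553 without it at 8 h. That of 6 macrophage markers was 1102 to 1752 with IL-2 and 1945 to 2421 without it at 4 h, and 1509 to 1644 and 1851 to 2058 at 8 h. Most of it was Cd68. Of these 6 markers, Cd68 was above the array median on 43 arrays, Cd14 on 42, Csf1r on 40, Adgre1 on 32, Lyz2 on 6 and Itgam on 1. Sums of 5 B cell markers (188 to 240 with IL-2 and 159 to 245 without at 8 h), of 6 fibroblast markers (16517 to 27041 and 24654 to 27009, nearly all Vim) and of 4 erythroid markers (111 to 233 and 78 to 174) overlapped at 8 h. Marker by marker, limma called 1 of 9 tested T cell markers higher and 3 lower with IL-2 at 4 h, and likewise at 8 h. The shares of all tested genes called were 16.8% and 23.2%. At 8 h Cd8a was higher (2.68 ± 0.41), and Zap70 (-1.27 ± 0.18), Ptprc (-1.04 ± 0.20) and Cd247 (-0.51 ± 0.16) were lower. Of 5 tested macrophage markers, 0 were called at either time. The part of these markers in the receptor results was not tested.

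The order of the 13 group means shows how far the levels can be ranked. For Ctla4 they ran from 12.54 at IL-2 0.5 h to 8.48 at IL-2 10 h on the log2 scale, with a median SD within groups of 0.51. Of the 12 pairs of neighbours in that order, the arrays did not overlap in 2: IL-2 1 h over IL-2 2 h, and IL-2 6 h over IL-2 8 h. Tnfrsf9 ran from 14.15 at IL-2 8 h to 12.09 at no IL-2 8 h, and its 1 neighbouring pair without overlap was IL-2 0.5 h over no IL-2 8 h. Tnfrsf18 ran from 13.23 at IL-2 8 h to 11.17 at no IL-2 8 h, with IL-2 8 h above IL-2 6 h as its 1 such pair. Havcr2 ran from 13.95 at IL-2 8 h to 12.8 in starved cells with 0 such pairs. Cd28 ran from 10.41 at IL-2 1 h to 6.99 at IL-2 10 h, also with 0. For Lag3, from 12.59 at no IL-2 4 h to 10.98 at IL-2 16 h, the 1 pair was no IL-2 8 h over starved cells. Icos, from 7.36 at IL-2 2 h to 5.51 at no IL-2 8 h, and Tnfrsf4, from 8.4 at IL-2 0.5 h to 6.87 at IL-2 16 h, had 0. These orders were taken from the same arrays. Separation of neighbours was not tested or set against that of other genes, and groups this small can separate by chance.

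The genes whose group means most resembled those of the 3 receptor genes with the largest F were named by Pearson correlation over the 13 group means, as a description. For Ctla4 they were Fam168a (r = 0.975), the chromatin gene Kmt2e (r = 0.974) and the ubiquitin ligase gene Rnf103 (r = 0.973). For Cd28 they were the caspase inhibitor gene Xiap (r = 0.971), the antiproliferative gene Tob1 (r = 0.966) and Jup, the gene for plakoglobin (r = 0.957). For Tnfrsf9 they were Cflar, which encodes the caspase-8 regulator FLIP (r = 0.951), the translation termination factor gene Etf1 (r = 0.936) and the initiation helicase gene Eif4a1 (r = 0.935). All of these groups share the arrays from which the receptor means were taken.

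Other genes of the same pathways were counted at 8 h, when 23.6% of all tested genes were called with IL-2 against starved cells and 23.2% against no IL-2. Of 7 tested TNF receptor family members outside the set, 1 rose and 0 fell with IL-2 against starved cells, and 2 rose and 0 fell against no IL-2. Tnfrsf8 (CD30) was the one in both. Its mean signal was 813 ± 207 (SD, n = 3) with IL-2 at 8 h, against 50.7 ± 9.84 without IL-2 at 8 h and 65.6 ± 41.2 in starved cells (n = 5). The log2 differences were 3.61 ± 0.57 (adjusted p = 1.45e-05) and 3.53 ± 0.51 (adjusted p = 4.27e-06). Both lower means lie near the array medians, so the size depends on the pseudocount. Tnfrsf10b, a TRAIL receptor, rose by 1.27 ± 0.41 against no IL-2 (adjusted p = 0.024). Its means, 101 ± 15.2 with IL-2 and 38.7 ± 32.8 without it, also lie near the array medians. Against starved cells Tnfrsf10b differed by 0.07 ± 0.37 (adjusted p = 0.94).

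Of 11 tested ligand genes, 1 rose and 1 fell in each 8 h comparison, beside the same 23.6% and 23.2% of all tested genes. Cd80, a ligand of both CD28 and CTLA-4, averaged 1235 ± 534 with IL-2, against 338 ± 26.2 without IL-2 (1.71 ± 0.47, adjusted p = 0.00699) and 483 ± 146 in starved cells (1.26 ± 0.42, adjusted p = 0.028). Lgals9, which encodes galectin-9, a TIM-3 ligand, averaged 326 ± 215 with IL-2, against 1171 ± 15 without IL-2 (-1.97 ± 0.38, adjusted p = 0.000216) and 1659 ± 291 in starved cells (-2.45 ± 0.34, adjusted p = 2.67e-06).

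Of 17 other costimulatory and inhibitory receptors tested at 8 h, 2 rose and 2 fell with IL-2 against no IL-2, and 1 rose and 0 fell against starved cells, where 23.2% and 23.6% of all tested genes were called. Slamf7, of the SLAM family, rose (1.80 ± 0.49, adjusted p = 0.0068), while Klrg1, an inhibitory lectin-like receptor, fell by 1.97 ± 0.43 (adjusted p = 0.000762) and Cd96 fell by 0.90 ± 0.22 (adjusted p = 0.00244), all against no IL-2. Cd48, a ligand of the SLAM family receptor 2B4, rose by 0.63 ± 0.14 against starved cells (adjusted p = 0.00131). Of 18 tested signal adaptors and phosphatases, 2 rose and 4 fell against no IL-2, and 0 rose and 3 fell against starved cells, again beside 23.2% and 23.6% of all tested genes. Sh2d1a, the adaptor SAP of SLAM receptors, averaged 452 ± 164 with IL-2, against 2415 ± 52.8 without IL-2 (-2.44 ± 0.51, adjusted p = 0.000473) and 1535 ± 471 in starved cells (-1.74 ± 0.45, adjusted p = 0.00479). Vav1, an exchange factor downstream of CD28, fell by 1.21 ± 0.21 against no IL-2 (adjusted p = 4.34e-05) and by 0.65 ± 0.18 against starved cells (adjusted p = 0.00938). Traf1, an adaptor of TNF receptors including 4-1BB, fell by 0.64 ± 0.23 against starved cells (adjusted p = 0.0403), and Relb, an NF-kB subunit, fell by 1.36 ± 0.34 against no IL-2 (adjusted p = 0.00323). The median differences of the 4 lists against no IL-2 were 0.48 for TNF receptors, -0.05 for ligands, 0.3 for other receptors and -0.18 for adaptors, beside -0.06 for all tested genes.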

How the data were processed

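The authors deposited 43 Affymetrix Mouse Genome 430 2.0 arrays as signal intensity on a linear scale, computed in GCOS 1.3 per the submitters' processing notes. The 2% trimmed mean of every array was 500.003 to 500.004. Other deposited records, the scan days, were read per the file headers of the experiment files. FDR p-values and cluster numbers were copied from the authors' deposited table and entered no test.

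Values were taken as log2(signal + 16). Probe sets above their array's median on at least 3 arrays were tested (32184, for 14534 genes; 13 of the 14 receptor probe sets). limma 3.58.1 in R 4.3.3 fitted 1 mean per group to all 43 arrays (30 residual degrees of freedom) with a variance trend, two-sided, with Benjamini-Hochberg adjustment over all probe sets in each of 17 comparisons and an F test. Errors beside log2 differences are standard errors. The number of arrays limits precision. The fit was tested on simulated data. Symbols were matched to RefSeq, and promoters are RefSeq, GRCm38.p6.

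All receptor genes were named. In each of 4 pathway lists, up to 3 called genes with the largest difference in each 8 h comparison were named, and 3 most similar genes for each of the 3 receptor genes with the largest F. The receptor genes and lists were chosen with earlier results of these data known. Listed genes without a matching probe set (such as Tigit, Lck and Traf3) were not analysed here. Replicate numbers were not used as pairs in the main fit. Residuals of arrays with the same number had a median correlation of 0.024 and a lowest of -0.358, against -0.013 and -0.483 for other numbers. Correlations over 0.1 were found in 77 of 237 pairs with the same number and 94 of 614 with other numbers. Alternatives changed the pseudocount, scaling, filter, arrays fitted, blocks, variance trend and probe set summary, or left out 1 array.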

Additional observations from a re-analysis of the deposited data

Results flagged for a closer look

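Among 42 receptor probe set groups of 4 or 5 arrays, 2 held an array far from the rest, about as many as the 1 in 20 that chance gives. Both were no IL-2 4 h replicate 2. It read 226.4 for Ctla4, below 1650.8 to 1925.3 on the other 3 arrays of its group, and 93.3 for Tnfrsf4, below 174.3 to 196.9 on them.

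The effect of IL-2 against no IL-2 on Tnfrsf9 differed between 8 h and 4 h, with a tested difference of 2.08 ± 0.38 on the log2 scale (limma, adjusted p = 0.0263). All 3 IL-2 arrays lay above all 3 no IL-2 arrays at 8 h, and the arrays overlapped at 4 h. The call was lost in 6 of the 14 fits that left out 1 array (adjusted p = 0.0519 to 0.112), under median centring (adjusted p = 0.157), with no variance trend (adjusted p = 0.102) and on the mean of the probe sets (adjusted p = 0.0799).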

How the results depend on the processing

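The main results were 34 calls of a receptor gene in a comparison, and none changed direction under any alternative. With pseudocounts of 1 or 64, quantile normalisation, a filter at the 75th percentile or the replicate block, 34 of 34 were still called. Lost were 9 under median centring, 2 with no filter, 2 when only the arrays compared were fitted, 5 with scan day as a random block, 6 without the 7 arrays of scan day 2, 3 with no variance trend, 4 on the mean over each gene's probe sets, and 4 of the 24 fitted with scan day as a fixed block, which gives no value across scan years. The cause of these losses was not tested.

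The number of receptor genes called moved as follows. The share of all tested genes called is given for the main fit only. It is not given for these alternatives or for the fits that left out 1 array. Whether a count moved more than that of all tested genes can therefore not be read from it. Under median centring it was 2 at IL-2 6 h, 1 at 16 h and 0 at 24 h against starved cells, 0 for no IL-2 8 h against starved cells, 1 for IL-2 4 h against no IL-2 4 h and 0 for the difference of effects. With the arrays compared alone it was 1 at 2 h, 0 at 24 h and 2 for no IL-2 8 h against starved cells. The replicate block gave 1 at 2 h and 2 for no IL-2 8 h against starved cells, and changed no other call. Scan day as a fixed block gave 1 at 2 h, 3 at 10 h, 3 at 12 h and 1 for no IL-2 8 h against 4 h. As a random block, with a correlation of 0.349, it gave 1 at 2 h, 0 and 0 for no IL-2 4 h and 8 h against starved cells, 2 for IL-2 8 h against no IL-2 8 h and 1 for no IL-2 8 h against 4 h. Without scan day 2 it was 2 at 6 h, 0 at 24 h, 1 for no IL-2 4 h against starved cells, 1 for no IL-2 8 h against 4 h and 1 for IL-2 24 h against 10 h. Quantile normalisation gave 1 for no IL-2 8 h against 4 h, no variance trend gave 0 for the difference of effects, and the mean of probe sets gave 1 and 0 for no IL-2 4 h and 8 h against starved cells and 0 for the difference of effects.

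With 1 array left out, 228 of 275 calls held. The number called ranged from 0 to 0 at 0.5, 1 and 2 h, 1 to 3 at 4 h, 1 to 4 at 6 h, 4 to 5 at 8 h, 3 to 5 at 10 h, 3 to 6 at 12 h, 1 to 4 at 16 h and 0 to 2 at 24 h. It ranged from 0 to 2 for no IL-2 4 h and for no IL-2 8 h against starved cells, 2 to 3 and 4 to 5 for IL-2 against no IL-2 at 4 and 8 h, 0 to 1 for the difference of effects, for IL-2 24 h against 10 h and for no IL-2 8 h against 4 h, and 5 to 7 in the F test. Within a scan day, the called differences that had a value kept their sign: 3 of 3 on day 1, 5 of 5 on day 2, 24 of 24 on day 3 and 6 of 6 on day 4. The calls used these same arrays, so this is a description and not a separate test. Days 1, 2 and 4 held 1 starved array each. Days 5 and 6 held no starved array, so 2 arrays of IL-2 10 h and 2 of IL-2 12 h did not enter. Signals near the array median (Icos, Pdcd1 and the low Cd28 arrays) limit what can be detected.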
